A study of Mus musculus with 6 samples.

Results

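The 10 genes described here are markers of endothelial cells, the cells that line blood vessels: Pecam1, Cdh5, Kdr, Flt1, Tek, Tie1, Emcn, Cldn5, Vwf and Eng. They were chosen by name as a list of known markers, and were found by Ensembl identifier among the 39059 genes counted in each library. All 10 passed the filter on low counts. The total RNA came from freshly isolated satellite cells, which are resident stem cells of muscle, sorted by flow cytometry out of hind limb muscle at postnatal day 19 (strain C57BL/6J). The homozygous group (Lmna Δ8-11 -/-, 3 libraries) lacked exons 8 to 11 on both alleles of Lmna, which encodes lamins A and C, and the wild-type group (Lmna Δ8-11 +/+, 3 libraries) did not. The labels give no other allele, no treatment and no gate for the sort. They name 3 mice per condition without assigning a library to a mouse, so the tests measure only the spread between these libraries, which may be technical in part. Y-linked reads, described below, were found in 1 homozygous and 2 wild-type libraries. The libraries of a genotype therefore did not all come from a single mouse, and the sexes were uneven between genotypes.

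Endothelial cells sense vascular growth factors through receptor tyrosine kinases: the VEGF receptors, of which Kdr carries most of the growth signal and Flt1 binds the same ligand tightly while signalling weakly, and the Tie receptors, of which Tek binds the angiopoietins and Tie1 is its partner. Cdh5, Pecam1 and Cldn5 hold neighbouring endothelial cells together, Emcn coats the surface of capillaries and veins, Vwf is stored for blood clotting, and Eng is a coreceptor for ligands of the TGF-beta family. Several of these genes are not restricted to endothelium: Pecam1 is also made by leukocytes and platelets, Vwf by megakaryocytes, Eng by stromal cells, and Tek has been described in satellite cells. Capillaries run beside muscle fibres and satellite cells, and sorts of satellite cells commonly discard cells that display CD31, the product of Pecam1.

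All 10 markers were present in every library, at 78 reads or more, and none passed the test between genotypes across all genes. Read counts were scaled to library size as CPM and compared with edgeR's quasi-likelihood test, with p-values adjusted over 14099 genes by the Benjamini-Hochberg method and a threshold of 0.05. 0 of 10 markers passed, and 0 had an unadjusted p under 0.05, where 21.1% of all genes tested passed and 35.9% had such a p. DESeq2 also called 0, where it called 19.1% of all genes. By contrast, limma voom called Cdh5 and Kdr lower, where 29.1% of genes passed, and edgeR with no filter on low counts called Cdh5, Kdr and Cldn5 lower, where 15.7% passed. Fitted values lay below 0 in homozygous cells for 9 of 10, with a median log2 fold change of -0.28, against -0.0038 over all genes tested. In bulk RNA, fewer endothelial cells and less RNA per cell cannot be told apart. The ranges of the genotypes overlapped for all 10, where 40.7% of all genes tested had groups that did not overlap.

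Gene reads per library ran from 6613636 to 9552751. Lmna stood at 436, 375 and 451 CPM in the homozygous libraries, in the order of replicates 1, 2 and 3, against 842, 939 and 1057 CPM for wild type. The groups did not overlap (log2 fold change -1.17, SE 0.14, adjusted p = 0.0010, edgeR). Reads from exons outside the deletion are part of this count, which limits it as a check of the labels. Homozygous replicate 2 and wild-type replicate 2 stood apart in Gm42418, at 1.30 and 1.39% of gene reads against 0.0914 to 0.180% in the other 4 libraries. Reads from 4 Y-linked genes were found in homozygous replicate 2 and in wild-type replicates 2 and 3, at 3074 to 4831, against at most 3 in each of the others. Satellite cell markers were present: 8 of 8 were tested, and the level of Pax7, which specifies these cells, was 5.40 ± 3.08 RPKM (CPM per kilobase of exon; homozygous, SD, n = 3) and 12.98 ± 1.77 RPKM (wild type).

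Per kilobase of exon, Cldn5 and Cdh5 were the highest of the 10 markers over the 6 libraries, at 35.9 ± 14.3 and 26.0 ± 7.68 RPKM (SD, n = 6). Pecam1 at 19.6 ± 5.28 and Tek at 16.2 ± 3.65 RPKM followed. Cldn5, Cdh5 and Pecam1 each exceeded the next gene in this order in 5 of 6 libraries, and Tek exceeded Tie1 in all 6. Tie1 at 7.36 ± 2.63, Eng at 6.20 ± 1.003, Kdr at 5.50 ± 1.95 and Flt1 at 5.33 ± 1.14 RPKM could not be ordered beyond their spread. Emcn at 3.04 ± 0.923 and Vwf at 1.92 ± 0.670 RPKM were the lowest, each below the gene before it in all 6 libraries. In RPKM the mean levels of Cldn5, Cdh5, Pecam1 and Tek were above that of Pax7 in both genotypes. The length used counts each annotated exonic base of a gene once, over all its transcripts (5409 bases for Emcn, 16064 for Vwf). By mean CPM, Vwf (26.8 homozygous, 34.9 wild type) lay above Emcn (14.7 and 18.2), so the order depends on this length.

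Promoters are shown for 4 markers that mark the ends of the patterns described next: Flt1 and Kdr, the VEGF receptors, whose shares of the marker reads lay apart in opposite directions, Cldn5, the marker with the widest spread between libraries, and Eng, the one with the narrowest. They are the bases just before the transcription start in RefSeq (GRCm38.p6), 5′ to 3′ on the strand of the gene, with the core motif GGAA of ETS transcription factors, a family that controls many endothelial genes, in capitals (TTCC where it lies on the other strand).
Flt1, chr5:147726012-147726261, minus strand: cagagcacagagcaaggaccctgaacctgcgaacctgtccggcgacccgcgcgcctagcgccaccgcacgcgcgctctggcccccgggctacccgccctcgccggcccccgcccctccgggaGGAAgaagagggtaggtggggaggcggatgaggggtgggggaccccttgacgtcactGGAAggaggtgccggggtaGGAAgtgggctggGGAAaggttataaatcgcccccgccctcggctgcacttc
Kdr, chr5:75978459-75978705, minus strand: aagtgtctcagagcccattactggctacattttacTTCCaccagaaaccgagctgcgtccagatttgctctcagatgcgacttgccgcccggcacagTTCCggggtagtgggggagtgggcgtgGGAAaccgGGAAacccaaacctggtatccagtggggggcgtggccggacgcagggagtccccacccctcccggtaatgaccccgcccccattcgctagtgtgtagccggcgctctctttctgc
Cldn5, chr16:18776597-18776846, plus strand: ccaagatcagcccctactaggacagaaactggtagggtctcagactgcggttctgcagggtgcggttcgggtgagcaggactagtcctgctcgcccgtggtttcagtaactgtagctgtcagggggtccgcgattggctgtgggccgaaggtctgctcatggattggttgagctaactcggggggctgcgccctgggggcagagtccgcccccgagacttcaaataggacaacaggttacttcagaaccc
Eng, chr2:32646345-32646594, plus strand: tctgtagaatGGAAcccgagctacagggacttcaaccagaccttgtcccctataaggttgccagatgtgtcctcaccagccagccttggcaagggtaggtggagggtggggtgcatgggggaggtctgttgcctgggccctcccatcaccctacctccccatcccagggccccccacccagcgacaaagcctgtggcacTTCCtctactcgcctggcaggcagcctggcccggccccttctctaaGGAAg
7 of 10 markers matched the RefSeq promoter table. In the 250 bases before the start, counted on both strands, Flt1 held 4 GGAA matches, Kdr 4, Eng 3 and Cldn5 0. Over the 7 markers the number ran from 0 to 7 with a median of 4, where the median over all 32851 promoters was 3 and 93.4% held at least 1. The highest was that of Tie1, where 212 of the 250 bases lie inside the gene as placed by GENCODE M21. The longer match AGGAAG, which contains GGAA, was in 4 of the 7 and in 29.5% of all promoters. Flt1 alone of the 7 held TATAAA, which 12.4% of all promoters held. GGGCGG, the GC box, was in 3 of the 7 (Flt1, Kdr and Cldn5) and in 32.7% of all. These are letter matches only.

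Among the junction genes, Pecam1 (ENSMUSG00000020717, chromosome 11, 106654217 to 106750628, minus strand, GRCm38), the adhesion molecule CD31, was at 83.9, 163 and 117 CPM in homozygous replicates 1, 2 and 3 and at 158, 91.1 and 120.5 CPM in the wild-type replicates. The ranges coincided almost entirely, and the log2 fold change was -0.02 (95% interval -0.57 to 0.52, adjusted p = 0.955, edgeR). Its sign turned without replicate 1 of either genotype (0.19 for both) and without homozygous replicate 3 (0.0055). Cdh5 (ENSMUSG00000031871, chromosome 8, 104101625 to 104144511, plus strand), or VE-cadherin, the cadherin of endothelial adherens junctions, was at 75.9, 128 and 77.5 CPM in homozygous and at 159, 96.5 and 118 CPM in wild-type replicates. Homozygous replicate 2 lay above 2 of the 3 wild-type libraries, and the other homozygous libraries lay below all 3 (log2 fold change -0.41, 95% interval -0.92 to 0.09, adjusted p = 0.222). Cldn5 (ENSMUSG00000041378, chromosome 16, 18776847 to 18778262, plus strand), the claudin of endothelial tight junctions, was at 19.4, 68.0 and 39.8 CPM in homozygous and at 71.3, 42.9 and 63.6 CPM in wild-type replicates. Its homozygous libraries spanned a 3.50-fold range, the widest of the 10, and its log2 fold change was -0.48 (95% interval -1.26 to 0.31, adjusted p = 0.360). Neither interval excludes 0.

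**Figure D1:**
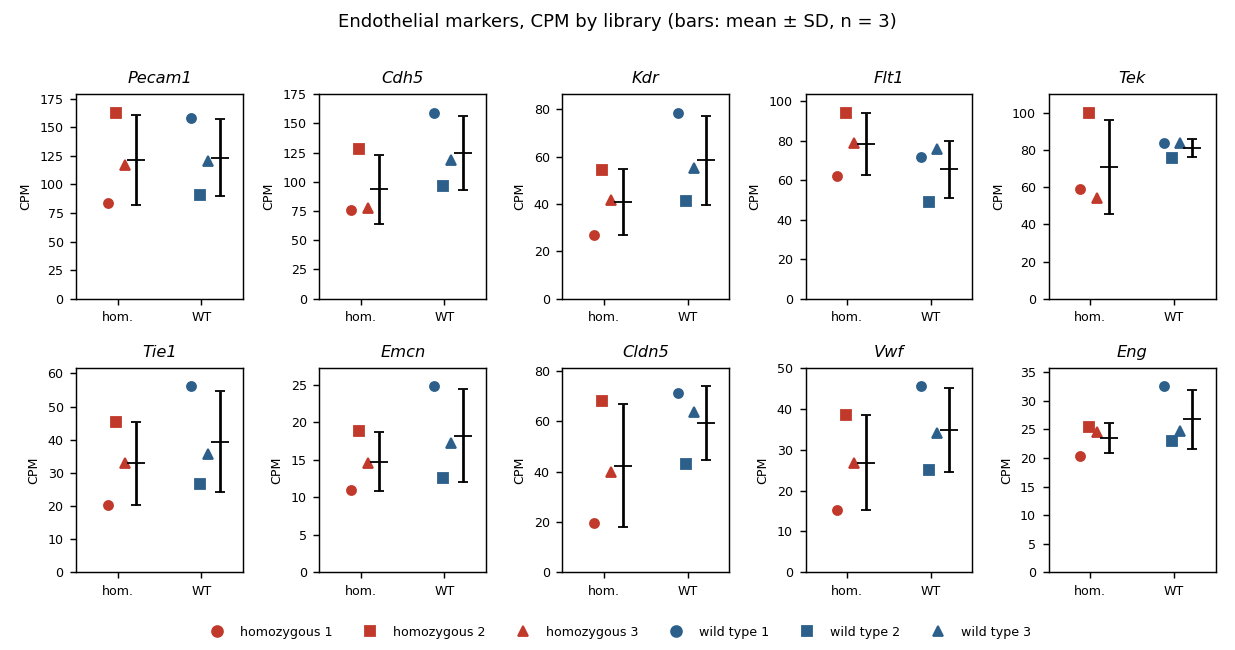
CPM of each of the 10 endothelial markers in the 3 homozygous (red) and 3 wild-type (blue) libraries, 1 panel per gene, with marker shapes for replicates 1, 2 and 3 and bars for mean ± SD. The groups overlap in all 10 panels, with homozygous replicate 2 (red square) the highest homozygous library and wild-type replicate 2 (blue square) the lowest wild-type library in each.

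Of the VEGF receptors, Kdr (ENSMUSG00000062960, chromosome 5, 75932827 to 75978458, minus strand), or VEGFR2, was at 26.7, 54.5 and 41.8 CPM in homozygous replicates 1, 2 and 3 and at 78.6, 41.2 and 55.4 CPM in the wild-type replicates. Its log2 fold change of -0.51 was the lowest of the 10 and did not pass the test (95% interval -1.10 to 0.09, adjusted p = 0.200). Flt1 (ENSMUSG00000029648, chromosome 5, 147561604 to 147726011, minus strand), or VEGFR1, was at 62.4, 94.0 and 79.1 CPM in homozygous and at 71.8, 49.0 and 75.9 CPM in wild-type replicates. It was the one marker with a fitted value above 0 (log2 fold change 0.26, 95% interval -0.16 to 0.67, adjusted p = 0.349). That sign turned without the 2 libraries high in Gm42418 (-0.06). Neither receptor separated the genotypes by its own level.

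Of the Tie receptors, Tek (ENSMUSG00000006386, chromosome 4, 94739289 to 94874976, plus strand), or Tie2, was at 59.0, 100.2 and 54.1 CPM in homozygous and at 83.7, 75.7 and 84.1 CPM in wild-type replicates. The wild-type libraries lay close together (81.1 ± 4.73 CPM, n = 3), while homozygous replicate 2 lay above all of them and the other homozygous libraries below. Tie1 (ENSMUSG00000033191, chromosome 4, 118471191 to 118490061, minus strand), the orphan partner of Tek, was at 20.4, 45.4 and 32.9 CPM in homozygous and at 56.1, 26.5 and 35.7 CPM in wild-type replicates. The log2 fold changes were -0.19 for Tek (95% interval -0.64 to 0.27) and -0.26 for Tie1 (-0.93 to 0.41), and the sign of Tie1 turned without wild-type replicate 1 (0.08).

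Among the surface and secreted markers, Emcn (ENSMUSG00000054690, chromosome 3, 137341067 to 137432185, plus strand), the sialomucin endomucin, was at 10.9, 18.8 and 14.5 CPM in homozygous and at 24.8, 12.6 and 17.3 CPM in wild-type replicates. Vwf (ENSMUSG00000001930, chromosome 6, 125546774 to 125686679, plus strand), von Willebrand factor, was at 15.2, 38.5 and 26.7 CPM in homozygous and at 45.5, 25.0 and 34.2 CPM in wild-type replicates. Eng (ENSMUSG00000026814, chromosome 2, 32646595 to 32682669, plus strand), endoglin, was at 20.4, 25.4 and 24.5 CPM in homozygous and at 32.5, 22.9 and 24.8 CPM in wild-type replicates. All 3 overlapped between genotypes, with log2 fold changes of -0.31 for Emcn (95% interval -0.89 to 0.27), -0.38 for Vwf (-1.04 to 0.29) and -0.19 for Eng (-0.56 to 0.18). Exons of Eng share 61 bases, 1.51% of their length, with Fpgs on the opposite strand, and no exon of the other 9 markers overlapped another counted gene.

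Summed over the 10 markers, homozygous replicates 1, 2 and 3 stood at 394, 735.5 and 508 CPM and wild-type replicates 1, 2 and 3 at 782, 483 and 630 CPM. The means were 546 ± 174 and 632 ± 149 CPM (SD, n = 3). Homozygous replicate 2 was the highest homozygous library for 10 of 10 markers, and wild-type replicate 2 the lowest wild-type library for 10 of 10. Over all genes tested these patterns held for 36.6% and 36% of genes, and both together for 13.3%. Homozygous replicate 1 was the lowest homozygous library for 9 of 10, all but Tek, and wild-type replicate 1 the highest wild-type library for 8 of 10, all but Flt1 and Tek. The SD of log2 CPM within a genotype had a median of 0.44 over the markers and 0.21 over all genes tested. Cldn5 was at the 95.7th percentile of all genes by this SD and Eng at the 53.2nd.

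**Figure D2:**
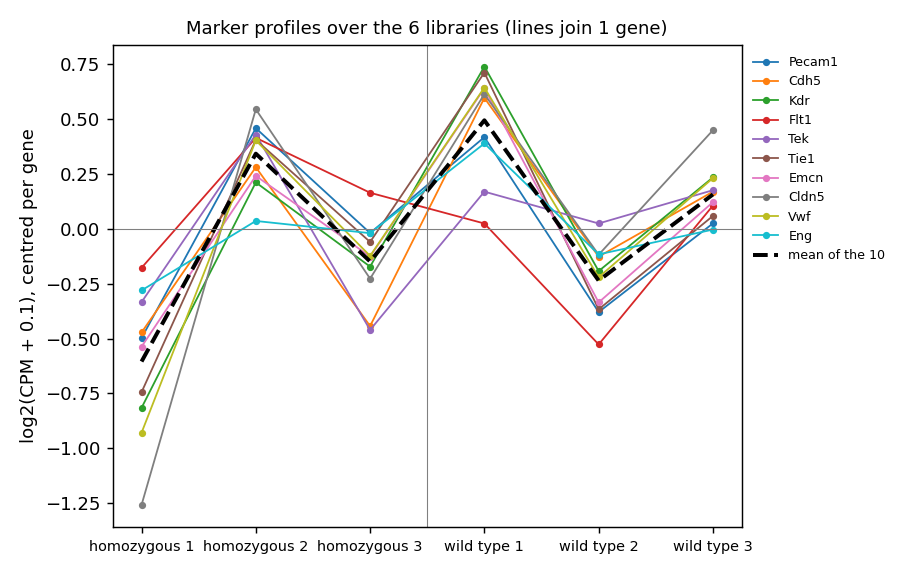
Log2(CPM + 0.1) of each marker, centred on its own mean, across the 6 libraries named on the x axis. Lines join the values of 1 gene, the dashed line is the mean of the 10, and the vertical line divides the genotypes. The mean runs from -0.60 in homozygous replicate 1 to 0.49 in wild-type replicate 1, with Cldn5 the widest profile and Flt1 departing from the others in wild-type replicate 1.

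Which genotype was higher depended on the libraries compared. Among the 4 libraries low in Gm42418, all homozygous libraries were below all wild-type libraries for 9 of 10 markers, all but Flt1, where 32.4% of all genes tested showed this order, and the summed level was 451 against 706 CPM. In the pair high in Gm42418, homozygous replicate 2 was above wild-type replicate 2 for 10 of 10, where 50% of all genes did, at 735.5 against 483 CPM. Without these 2 libraries, 7 markers were called lower and 0 higher by edgeR's test, where 26.9% of genes passed: Cdh5 (log2 fold change -0.86, adjusted p = 0.00092), Kdr (-0.97), Tek (-0.57), Tie1 (-0.79), Emcn (-0.73), Cldn5 (-1.19) and Vwf (-0.92). These 2 libraries were the highest homozygous and the lowest wild-type library for 10 of 10 markers, against 13.3% of all genes tested. Leaving them out therefore lowers the fold change of every marker by construction. The shares of 26.9 and 32.4% come from genes that mostly lacked this pattern. Without homozygous replicate 2 alone, 4 were lower (Cdh5, Kdr, Tek and Cldn5), where 27.5% of genes passed. No marker was called when any other single library was left out, where 10.9 to 14.7% of genes passed, or with high Gm42418 as a covariate (23.6%). Nor was any called with DESeq2's size factors (21.2%), library totals alone (20%), a stricter expression filter (20.5%), Y-linked reads as a covariate (13.7%) or a replicate block (17.3%). The part of Gm42418 in these values was not tested beyond these fits.

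**Figure D3:**
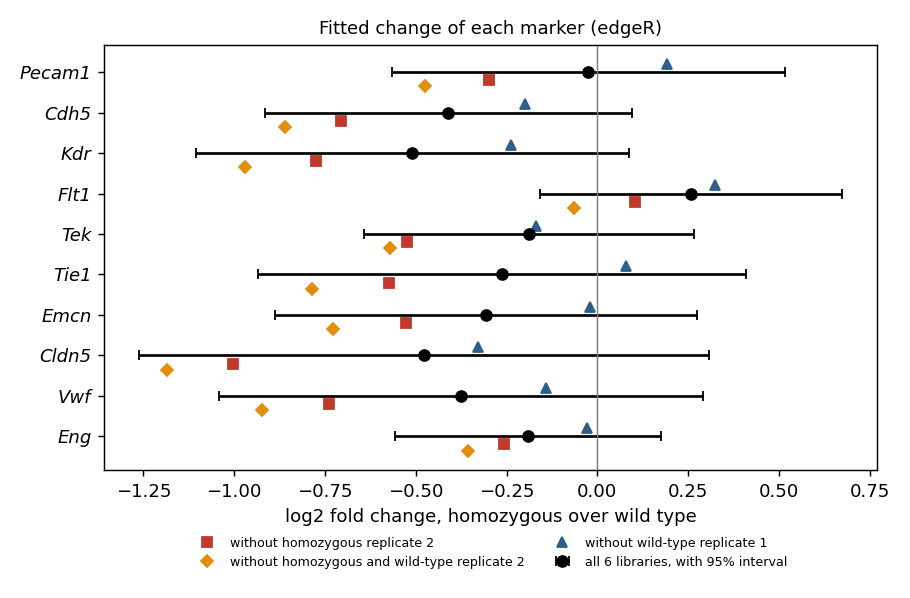
Log2 fold change of each marker, homozygous over wild type, with all 6 libraries (black, bars are 95% intervals) and in 3 fits that left libraries out. All black intervals include 0, and the fits without homozygous replicate 2 (red) and without both replicates 2 (orange) lie to the left of the black points for every marker, as far as -1.19 for Cldn5.

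A split by the Y-linked reads, which mark the sex of the mouse and are not given in the labels, gave the same signs. Only wild-type replicate 3 changes sides between this split and that by Gm42418, so they are not separate observations. In the 3 libraries with Y-linked reads, homozygous replicate 2 was above both wild-type libraries for 9 of 10 markers, all but Kdr, where 36.9% of all genes showed this order. In the 3 libraries without them, both homozygous libraries were below wild-type replicate 1 for 9 of 10, all but Flt1, where 41.3% of all genes did. The test of the difference itself, an interaction of genotype with the presence of these reads in edgeR, passed for 0 of 10 markers and for 0.241% of all genes. Its unadjusted p was under 0.05 for 8 of 10 markers and for 8.34% of all genes, and it was chosen after the split was seen. Its size ran from 0.61 for Flt1 to 1.61 for Tie1 and Cldn5 on the log2 scale, above 0 for all 10, and its lowest adjusted p was 0.0807, for Cdh5. Each subset holds a genotype with a single library, so the library and the presence of Y-linked reads cannot be told apart there. The 10 markers varied together over the libraries. Their counts in both splits are therefore not separate observations, and the shares over all genes do not measure chance for them.

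The make-up of the endothelial signal was compared next. Each marker's reads were expressed as a percentage of the reads of all 10 in the same library, which removes variation that all 10 share. The shares of 3 of 10 markers (Flt1, Pecam1 and Kdr) did not overlap between genotypes, and that of Kdr overlapped once exon length was taken into account. By CPM, the groups did not overlap for 40.7% of all genes tested and for 0 of the 10 markers. CPM and a share of the reads of 10 genes are unlike measures. For Flt1 these shares were 15.8, 12.8 and 15.6% in the homozygous libraries (replicates 1, 2 and 3) against 9.18, 10.1 and 12.1% in wild type. All homozygous shares lay above all wild-type shares, with means of 14.7 ± 1.68 and 10.5 ± 1.47% (SD, n = 3). Kdr made up 6.77, 7.41 and 8.23% in homozygous and 10.1, 8.52 and 8.79% in wild-type replicates, again without overlap but in the other direction. With reads divided by exon length first, the shares of Kdr overlapped (4.005 ± 0.371 against 4.56 ± 0.432%), while those of Flt1 did not (5.31 ± 0.848 against 3.49 ± 0.464%).

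Pecam1 made up 21.3, 22.1 and 23.0% in homozygous and 20.2, 18.8 and 19.1% in wild-type replicates, without overlap on either scale. The shares of the other 7 markers overlapped between genotypes, including Tek (13.1 ± 2.21 against 13.2 ± 2.48%) and Tie1 (5.94 ± 0.677 against 6.11 ± 0.929%). The ratio of Kdr to Flt1 reads ran from 0.428 to 0.579 among homozygous libraries. Among wild-type libraries it ran from 0.729 to 1.095, so the ranges were separate. Of all 45 pairs of markers, 14 had ratios that did not overlap between genotypes, a smaller part than the 41.9% of all pairs of tested genes. Shares and ratios were not tested. With 3 libraries against 3, an exact two-sided permutation test cannot go below 0.1.

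**Figure D4:**
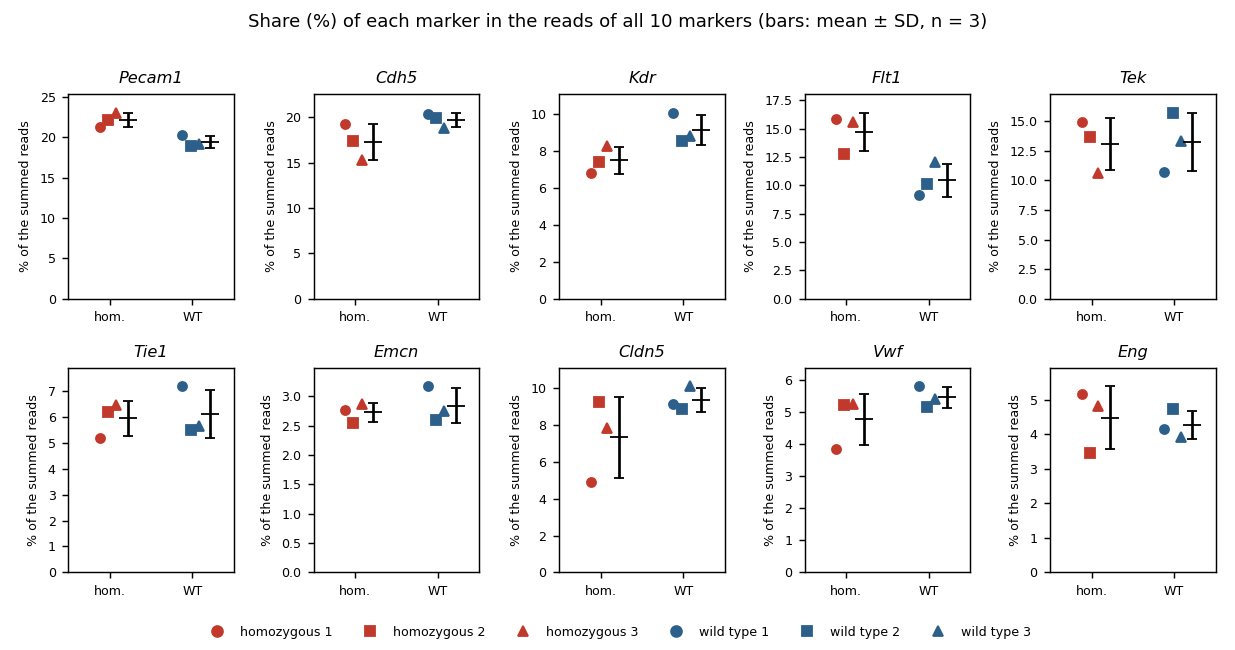
Reads of each marker as a percentage of the reads of all 10 markers in the same library, with homozygous libraries in red, wild type in blue, marker shapes for replicates 1, 2 and 3 and bars for mean ± SD. Flt1 (14.7 against 10.5%), Pecam1 (22.1 against 19.4%) and Kdr (7.47 against 9.12%) are the 3 markers whose groups do not overlap.

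Genes with the profile nearest to that of the markers were sought among 11102 genes whose mean reached 5 CPM, by the root mean square distance between centred log2 profiles over the 6 libraries. The nearest were Fgd5 (0.0542), Clic5 (0.0606), Plekhg5 (0.0862), S1pr1 (0.0921), Nos3 (0.1004) and Egfl7 (0.104), where the median over the candidates was 0.438. Nos3 is the endothelial nitric oxide synthase, S1pr1 a receptor for sphingosine-1-phosphate, and Egfl7 a protein secreted by endothelium. Fgd5 was at 14.965, 29.1 and 20.8 CPM in homozygous and at 31.0, 20.7 and 27.3 CPM in wild-type replicates, the same order of libraries as the summed markers. The markers themselves lay 0.0890 (Emcn) to 0.314 (Flt1) from their common profile. None of the 6 nearest genes passed the test between genotypes, at adjusted p of 0.305 or more (edgeR).

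Outside the 10 markers, 122 of 126 genes on 11 lists of endothelial genes were tested, and 7 were higher and 17 lower in homozygous libraries. That is 5.74 and 13.9%, where 9.67 and 11.5% of all genes tested were higher and lower. The count of lower genes was 45 without homozygous replicate 2, where 27.5% of all genes passed in either direction. It was 51 without both libraries high in Gm42418 (26.9%), and 9 to 11 when replicate 1 or 3 of either genotype was left out (10.9 to 14.7%). Over the 122 genes the median log2 fold change was -0.25. Of 24 other pan-endothelial genes, 3 were lower and 0 higher, with a median of -0.38. Cd34, a surface sialomucin also found on other cells, stromal progenitors among them, was at 25.7, 83.4 and 40.1 CPM in homozygous and at 166.5, 152 and 151 CPM in wild-type replicates. Its log2 fold change was -1.64 (SE 0.33, adjusted p = 0.0075, edgeR), and its groups did not overlap. Of 8 satellite cell markers 6 were lower and 0 higher, and of 8 fibro-adipogenic progenitor markers 5 were lower and 1 higher. The part of such cells in the values of Cd34 was not tested. Ramp2, part of the adrenomedullin receptor, and Clec14a, a surface lectin, also passed (log2 fold changes -0.81 and -1.12), at adjusted p of 0.0324 and 0.0440. Both missed the threshold when any single library other than homozygous replicate 2 was left out, at adjusted p of 0.0537 to 0.111 for Ramp2 and 0.0628 to 0.136 for Clec14a, and with Y-linked reads as a covariate (0.0515 and 0.0588). Homozygous replicate 2 was the highest homozygous library for 23 of the 24.

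The 2 main angiopoietins moved in opposite directions. Angpt1, the activating ligand of Tek, was at 1.40, 5.30 and 2.88 CPM in homozygous replicates 1, 2 and 3 and at 10.5, 13.3 and 15.9 CPM in the wild-type replicates, and fell by 2.01 on the log2 scale (SE 0.37, adjusted p = 0.0054, edgeR). Angpt2, which can antagonise it, was at 50.2, 63.1 and 57.1 CPM in homozygous and at 34.5, 31.0 and 26.3 CPM in wild-type replicates, and rose by 0.89 (SE 0.14, adjusted p = 0.0029). The groups overlapped for neither gene. Pgf, a ligand of Flt1, rose from 18.4 ± 2.14 to 31.9 ± 7.15 CPM (SD, n = 3; log2 fold change 0.79, SE 0.18, adjusted p = 0.0144). Vegfd, a ligand of lymphatic VEGF receptors, rose by 2.08 (SE 0.44, adjusted p = 0.0102) from few reads, 3 to 8 in wild-type and 21 to 27 in homozygous libraries. Vegfa, the main ligand of Kdr and Flt1, named after its values were seen, was at 80.0 ± 16.2 and 98.2 ± 5.64 CPM and did not pass (adjusted p = 0.167). Pgf missed the threshold without homozygous replicate 3 (adjusted p = 0.0586) or wild-type replicate 3 (0.0554), and Vegfd without wild-type replicate 1 (0.0542). The VEGF and angiopoietin lists held 8 genes (2 higher, 0 lower) and 4 genes (1 higher, 1 lower), where 9.67% of all genes tested were higher and 11.5% lower. Fitted values lay below 0 for 4 of the 8 VEGF genes and 3 of the 4 angiopoietin genes.

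**Figure D5:**
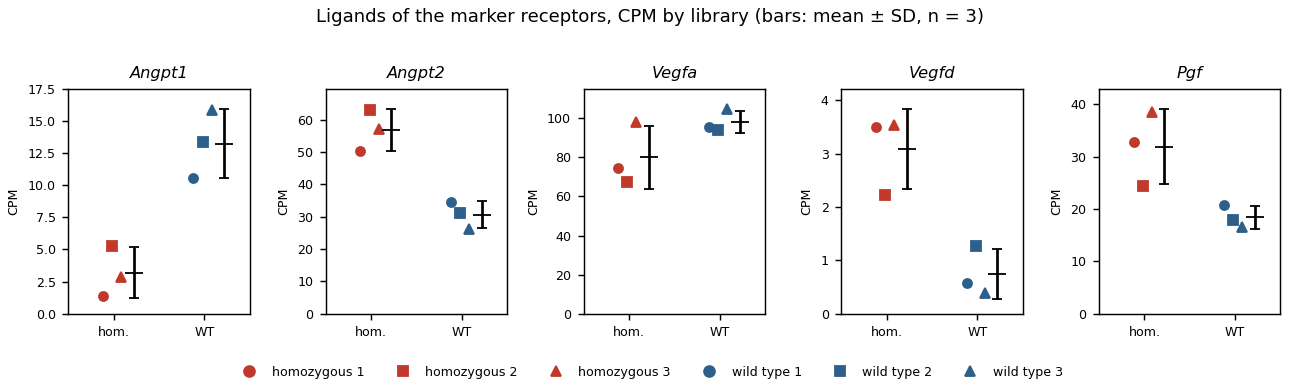
CPM of Angpt1, Angpt2, Vegfa, Vegfd and Pgf in the 3 homozygous (red) and 3 wild-type (blue) libraries, 1 panel per gene, with marker shapes for replicates 1, 2 and 3 and bars for mean ± SD. Angpt1 is lower and Angpt2, Vegfd and Pgf are higher in all 3 homozygous libraries, while the groups of Vegfa are not separated by the test.

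Pathways around Eng and the endothelial transcription factors held no called gene by edgeR, where 21.1% of all genes tested were called. Of the endoglin and ALK1 pathway, 13 of 15 genes were tested, with a median of 0.05, and Id3, a target of this signal and the most abundant, was at 558 ± 66.3 and 534 ± 52.7 CPM (log2 fold change 0.06, adjusted p = 0.777). Of the transcription factors, 17 of 18 were tested, with a median of -0.20, and Ets2 was at 306 ± 40.0 and 340 ± 17.8 CPM. Of the junction partners of Cdh5 and Cldn5, 1 of 13 tested was lower, where 11.5% of all genes tested were. It was the tight junction gene Ocln (13.3 ± 2.96 against 22.4 ± 2.005 CPM, log2 fold change -0.74, adjusted p = 0.0175). Ocln missed the threshold without replicate 1 or 3 of either genotype, at adjusted p of 0.0514 to 0.0685.

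Of 10 haemostasis genes, the group that includes partners of Vwf, 4 were lower and 1 higher, where 11.5 and 9.67% of all genes were. F8, the clotting factor that Vwf carries, was at 3.50, 5.41 and 3.67 CPM in homozygous and at 20.7, 6.04 and 28.6 CPM in wild-type replicates (log2 fold change -2.13, SE 0.46, adjusted p = 0.0110). Tfpi, an inhibitor of coagulation, was lower (-0.67) and Plat, tissue plasminogen activator, was higher (0.53). Among capillary genes, 2 of 10 were higher, Fabp4 (0.94), a fatty acid binding protein shared with adipocytes, and Rgcc (0.54), and 1 was lower, the transcription factor Meox2 (-0.96). Without wild-type replicate 1, Plat (adjusted p = 0.0568) and Rgcc (0.0578) missed the threshold. Fabp4 missed it without replicate 3 of either genotype (0.0577 homozygous, 0.0532 wild type) and without wild-type replicate 2 (0.0627). Adipocyte markers, of which 4 of 6 were tested and all 4 were higher, summed to 332 to 782 CPM in homozygous and 117 to 128 CPM in wild-type libraries, led by Plin4. The median log2 fold change of the 4 was 7.30, a larger change than that of the sum. The part of these cells in the values of Fabp4 was not tested.

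Of 11 arterial genes, Efnb2 (-0.44, adjusted p = 0.0493) and Hey2 (-0.43, adjusted p = 0.0497) were lower, just inside the threshold, and both missed it with the replicate number as a block (adjusted p = 0.0633 and 0.0591), with DESeq2 (0.0562 and 0.0631), with a filter at 1 CPM (0.0501 and 0.0507) and with Y-linked reads as a covariate (0.102 and 0.109). Efnb2 also missed it with library totals alone (0.0641). Each also missed it without any single library other than homozygous replicate 2, at adjusted p of 0.0888 to 0.164 for Efnb2 and 0.0893 to 0.176 for Hey2. Of 6 venous genes, Vcan, a matrix proteoglycan, was lower (-1.08) and Lrg1 was higher (3.38, SE 0.79), with an uneven level of 26.7, 3.82 and 61.9 CPM in homozygous against 2.23 to 3.24 CPM in wild-type libraries. Lrg1 missed the threshold without any 1 of the wild-type libraries, at adjusted p of 0.0528 to 0.0633. Of 6 lymphatic genes, 4 were lower, where 11.5% of all genes were, with a median of -1.49. Those with the smallest p were Thy1 (-2.84), which stromal cells also make, Lyve1 (-2.02), which macrophages also make, and Ccl21a (-3.86), whose groups overlapped (1, 13 and 1 against 107, 4 and 106 reads) and which has near-identical copies in the genome, so its count is uncertain. Ccl21a missed the threshold without replicate 1 or 3 of either genotype, at adjusted p of 0.0611 to 0.0668.

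Markers of other cell types that a muscle preparation can hold are given beside these values. Pericyte and smooth muscle markers, 10 of 10 tested, summed to 12787 to 13592 CPM in homozygous and 11681 to 16594 CPM in wild-type libraries, above the endothelial sum in every library. Among them Acta2, smooth muscle actin, was the most abundant, at 4080 ± 154 and 4828 ± 1271 CPM. Of the 10, 3 were higher, Kcnj8 (log2 fold change 1.38), Abcc9 (1.58) and Pdgfrb (1.02), and 1 was lower, the smooth muscle myosin Myh11 (-0.58, adjusted p = 0.0492). Fitted values lay above 0 for 4 of these 10 genes and below 0 for 6, with a median of -0.07. Macrophage and leukocyte markers summed to 42.9 to 74.0 CPM in homozygous and 34.8 to 60.7 CPM in wild-type libraries, with Lyz2, lysozyme, the most abundant. Of the 7 tested, Cd68 (1.46) and Cd14 (1.67), whose groups overlapped, were higher and 0 were lower. Over these 7 genes, 4 fitted values lay above 0 and 3 below, with a median of 0.08. Platelet and megakaryocyte markers summed to 11.6 to 13.6 CPM in homozygous and 8.33 to 12.4 CPM in wild-type libraries, mostly Itga2b, and 1 of 8 was tested. Fibro-adipogenic progenitor markers, 8 of 8 tested, summed to 1442 to 2247 CPM in homozygous and 4423 to 4722 CPM in wild-type libraries, led by Col3a1, a fibrillar collagen. Of the 8, 5 were lower, and Pdgfra, the receptor that defines these cells, was higher (0.88, adjusted p = 0.0234). Beside the counts on the pericyte, macrophage and fibro-adipogenic lists, 9.67% of all genes tested were higher and 11.5% lower. The called genes of these 3 lists were named after their values were seen. Satellite cell markers summed to 1050 to 1446 CPM and 1859 to 1892 CPM, with Pax7 lower (log2 fold change -1.25, adjusted p = 0.0179). Erythroid markers (216 to 880 CPM against 892 to 1584 CPM, led by Hbb-bs) and tendon markers (70.04 to 188 CPM against 186 to 213 CPM, led by Thbs4) followed. Their part in the values of the endothelial markers was not tested.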

How the data were processed

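Ribosome-depleted, stranded total RNA libraries were sequenced from sorted satellite cells, 3 homozygous and 3 wild-type by their labels. The authors deposited whole-number read counts per Ensembl gene for each library. Trimmomatic 0.32, STAR 2.5.2b, HTSeq 0.6.1 and mm10 are named in the submitters' processing notes, with strand setting and annotation release not given in the sources used here. Summary lines that name no gene (45.0 to 49.8% of each file's total) stayed out of all totals. Symbols and positions came from GENCODE M21.

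Counts were filtered with filterByExpr (minimum 10, total 15), scaled by TMM and tested with edgeR 4.0.16 (R 4.3.3, common biological coefficient of variation 0.162), by the quasi-likelihood test on genotype alone, with Benjamini-Hochberg adjustment over 14099 genes. CPM use the totals of tested genes times the TMM factor. SE is the log2 fold change divided by the square root of F. The steps were tested on simulated data, where a larger share of the called genes was false than the threshold sets, so calls near 0.05 are the least certain. Members, lists and tests were chosen with earlier results of these data known. Named genes are the 10 markers, Lmna, up to 3 called genes of each endothelial list with the smallest p (the most abundant where none passed), the most abundant gene of each other cell type list (1 such list is not reported here) and the 6 genes nearest in profile. Alternatives were DESeq2 1.42.0, limma 3.58.1 (voom), other scalings and filters, covariates, a replicate block and leaving libraries out. The Gm42418 covariate and the interaction with Y-linked reads were chosen after seeing the data. Promoters came from RefSeq (GRCm38.p6).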

Additional observations from a re-analysis of the deposited data

Results flagged for a closer look

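The difference between genotypes in the summed level of the 10 endothelial markers had opposite signs in libraries with and without Y-linked reads. Homozygous minus wild type was 179 CPM in the 3 libraries with these reads (1 homozygous, 2 wild-type) and -331 CPM in the 3 libraries without them (2 homozygous, 1 wild-type). The difference in the sum was not tested. For the single markers the interaction in edgeR passed for 0 of 10, with an unadjusted p under 0.05 for 8 of 10, all but Flt1 and Eng, where 8.34% of all genes had such a p. The markers varied together over the libraries, so these counts are not separate observations. The interaction was chosen after the split was seen, and 1 genotype in each subset is a single library. The libraries were split by a property of the reads that the labels do not give.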

How the results depend on the processing

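Over 16 alternatives, 139 of 160 marker values kept their direction and stayed outside the threshold, 16 passed it, all lower in homozygous libraries, and 5 changed sign. When 1 library was left out, values ran from -0.30 to 0.19 for Pecam1 (above 0 without replicate 1 of either genotype or homozygous replicate 3), from -0.57 to 0.0780 for Tie1 (above 0 without wild-type replicate 1) and from -0.0214 to 0.16 for Id3 (below 0 without homozygous replicate 2, and at -0.0175 without wild-type replicate 3). Flt1 was at -0.0638 without the 2 libraries high in Gm42418. Markers called numbered 2 with limma voom (Cdh5 and Kdr, where 29.1% of all genes passed), 3 with no filter (these and Cldn5, where 15.7% passed), 7 without the 2 libraries high in Gm42418, and 0 to 4 when 1 library was left out. Genes called numbered 1932 with Y-linked reads as a covariate and 1576 to 4002 when 1 library was left out, against 2980. Genes called lower on the other endothelial lists numbered 37 with limma voom, 35 with no filter, 51 without the 2 libraries and 9 to 45 when 1 was left out, and those higher 3 to 7. Of all genes, 29.1, 15.7, 26.9 and 10.9 to 27.5% passed in either direction in these fits. The causes were not tested. Same-numbered libraries did not deviate together (correlations -0.0208, 0.0287 and -0.0932), and correlations of differently numbered ones ran from -0.0561 to 0.0985. These correlations cannot exclude a pairing by number, since both replicates 2 were high in Gm42418. With the replicate block, 2437 genes and 0 markers were called. Each marker had 78 to 1535 reads per library, and the 95% intervals give the differences that these libraries leave possible.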
